A study of Mus musculus with 7 samples.

Results

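The genes described here are the glucose transporter gene Slc2a1 and 9 glycolytic enzyme genes (Hk2, Pfkp, Pfkl, Aldoa, Pgk1, Eno1, Eno2, Pkm and Ldha), listed by name. The list was chosen with earlier results of these data known, so counts of its members are not independent of these data. A probe set with a single gene symbol represented 9 of the 10, out of 9999 genes measured in the series, and Eno1 was not analysed here. They were compared between RAW264.7 cells, a mouse macrophage-like tumour line, labelled Gfi1 knockout (4 arrays, replicates 1 to 4, titled RAW GfI1-1) and the same line labelled wild type (3 arrays). All cells were kept in DMEM with serum and antibiotics and were untreated. Gfi1 is a zinc finger repressor of transcription in blood cells. The sources used here do not say how the gene was edited or whether the cultures were separate clones. The labels call the replicates biological but name no separate cultures, so p-values measure the spread between these arrays, which may be technical.

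Glycolysis splits glucose into pyruvate in the cytosol and yields ATP and NADH. Glucose enters through transporters such as the one encoded by Slc2a1 (GLUT1), is trapped by hexokinases, committed at the phosphofructokinase step, cleaved by aldolase, and carried through phosphoglycerate kinase, enolase and pyruvate kinase to pyruvate, which lactate dehydrogenase turns into lactate. Macrophages are known to raise glucose uptake and lactate output when activated, and the hypoxia-inducible factor HIF-1 is a known activator of many of these genes.

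The Gfi1 probe set read 4.93, 5.02, 3.97 and 3.97 (log2 signal) in the arrays labelled knockout, against 2.66, 2.85 and 2.98 in the wild-type arrays. It was higher, not lower, under the knockout label (limma adjusted p = 0.00447). All 3 wild-type values lay under the limit of the lowest 5% of genes there (3.50 to 3.54), so the size of the difference is uncertain, and since its place relative to the edit is unknown it is no check of the label. Every direction below therefore follows the labels. Knockout replicates 1 and 2 lay close together over all probe sets (SD of their log2 difference 0.16), as did replicates 3 and 4 (0.14) and the wild-type arrays (0.13 to 0.19), while the distance between the knockout pairs was 0.52 to 0.54. Of the 8 macrophage markers listed, all 8 were measured, and limma called 5 lower and 0 higher in the arrays labelled knockout (0 higher also at an unadjusted p under 0.05), against 21.6% of all genes lower. Adgre1, Cd68 and Csf1r were still called with the close knockout pairs as random blocks, while Lyz2 (adjusted p = 0.116) and Mrc1 (0.0838) were not, and Mrc1 lay under the limit of the lowest 5% of genes in all 7 arrays. The markers' summed intensity was 18942 to 20096 in knockout, against 25580 to 26215 in wild type. This sum is on the linear scale and mostly reflects the brightest markers, Lyz2 and Csf1r. Of 32 markers of other cell types, 1 was measured, Pdgfrb, which was dim and lower in knockout (2.54, 2.88, 2.77 and 2.66, against 3.90, 3.88 and 3.93 in wild type). In bulk RNA, fewer cells of a type and less RNA per cell cannot be told apart. The part of these marker differences in the results below was not tested.

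Printed are the promoters of the 3 most changed members (Slc2a1, Pfkp and Eno2) and of the single member that fell (Pfkl). The promoter of Ldha, which limma did not call, was added because it holds the most matches, so its match count reflects that choice. Each printed promoter is the 250 bases before the first listed start site, 5′ to 3′ on the gene's strand, from RefSeq, build GRCm38.p6. Capitals mark ACGTG and GCGTG, the core letters of the element that HIF-1 is known to bind, on either strand (CACGT and CACGC on the other strand).
Slc2a1, chr4:119108495-119108744, plus strand: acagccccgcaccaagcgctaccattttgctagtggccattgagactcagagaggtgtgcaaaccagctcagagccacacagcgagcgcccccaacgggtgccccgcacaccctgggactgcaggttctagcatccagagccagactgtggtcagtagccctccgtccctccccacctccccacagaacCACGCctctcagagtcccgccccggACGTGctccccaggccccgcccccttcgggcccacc
Pfkp, chr13:6648772-6649021, minus strand: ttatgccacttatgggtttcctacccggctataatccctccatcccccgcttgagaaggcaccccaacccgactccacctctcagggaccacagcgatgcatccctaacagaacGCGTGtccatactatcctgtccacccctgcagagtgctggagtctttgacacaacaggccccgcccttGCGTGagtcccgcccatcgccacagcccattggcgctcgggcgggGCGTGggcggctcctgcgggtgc
Pfkl, chr10:78009808-78010057, minus strand: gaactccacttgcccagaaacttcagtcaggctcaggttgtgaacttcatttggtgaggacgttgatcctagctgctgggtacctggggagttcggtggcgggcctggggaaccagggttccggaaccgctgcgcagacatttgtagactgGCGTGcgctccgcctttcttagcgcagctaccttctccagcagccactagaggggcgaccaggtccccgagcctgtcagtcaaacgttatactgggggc
Eno2, chr6:124769674-124769923, minus strand: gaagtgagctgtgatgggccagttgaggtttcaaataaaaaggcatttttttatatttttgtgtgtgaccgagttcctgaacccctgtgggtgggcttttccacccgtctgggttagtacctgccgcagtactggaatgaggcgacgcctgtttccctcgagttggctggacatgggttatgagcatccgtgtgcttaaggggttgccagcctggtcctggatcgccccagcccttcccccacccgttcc
Ldha, chr7:46845554-46845803, plus strand: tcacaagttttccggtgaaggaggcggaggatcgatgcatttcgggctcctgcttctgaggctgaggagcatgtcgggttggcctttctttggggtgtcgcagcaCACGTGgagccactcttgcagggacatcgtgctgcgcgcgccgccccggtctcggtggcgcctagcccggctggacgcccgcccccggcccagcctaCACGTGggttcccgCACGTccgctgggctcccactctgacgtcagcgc

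Slc2a1 held 1 GCGTG match 61 bases and 1 ACGTG match 36 bases before the start. Pfkp held 3 GCGTG matches, Pfkl held 1, Eno2 held none in this window, and Ldha held 5 ACGTG matches, of which 4 were the 2 strands of 2 copies of the E-box CACGTG. All 10 genes had a promoter entry, 16 in all, and 13 of these held at least 1 match (81.2%), against 38.6% of the 32851 promoters of the same length. These windows are not independent, since 2 windows of Aldoa and 2 of Eno1 overlap and share their matches. With the first start site of each gene alone, 7 of 10 held a match, and no share over all genes is given for that count. The member promoters were also richer in G and C, with a median of 64.6% against 52.4%. Among the 5828 promoters at or above 64.6%, 66.5% held a match. That set begins at the members' median, while member promoters went down to 50.4%, so it is not matched to them. The matches are letter matches only.

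Along the pathway, 6 of the 9 measured members rose in the arrays labelled knockout, 1 fell and 2 did not pass the test. Of all 9999 genes, 21.5% were called higher and 21.6% lower, at a Benjamini-Hochberg adjusted p of 0.05 with limma. The members' median log2 difference was 0.30, against -0.01 over all genes. Every knockout array lay above every wild-type array for 7 members, against 26.5% of genes, and every knockout array lay below for 1 member, against 27.9% of genes. Eno2 had the largest difference (1.61), followed by Pfkp, Slc2a1 and Hk2 (0.66 to 0.94). Aldoa, Pgk1, Pkm and Ldha lay between 0.09 and 0.30, and Pfkl was at -0.45.

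**Figure D1:**
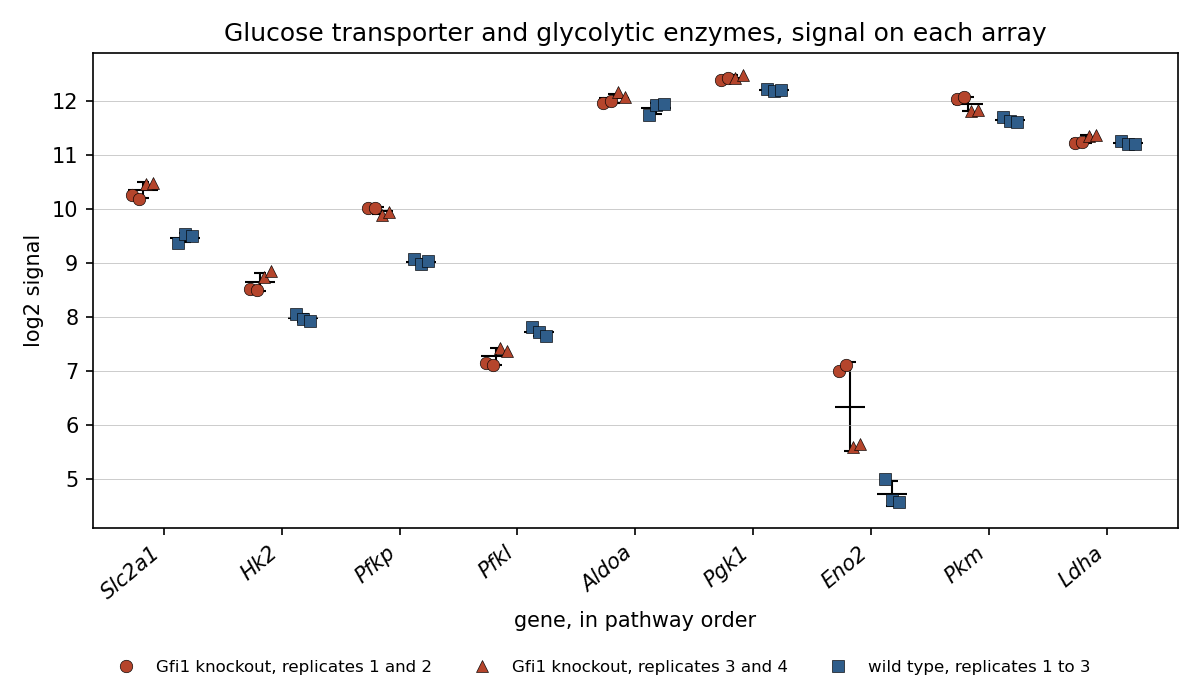
Log2 signal (y axis) of the 9 measured members in pathway order (x axis), with red circles for knockout replicates 1 and 2, red triangles for knockout replicates 3 and 4, blue squares for wild type, and black bars for mean ± SD (n = 4 and n = 3). Slc2a1, Hk2, Pfkp and Eno2 stand clear above wild type and Pfkl below it, while the Ldha groups overlap; heights of different genes cannot be compared because each has its own probes.

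Slc2a1 encodes GLUT1, the main basal glucose transporter of many cell types. Its log2 signal was 10.26, 10.18, 10.46 and 10.48 in the arrays labelled knockout, against 9.37, 9.54 and 9.50 in wild type. All 4 knockout arrays lay above all 3 wild-type arrays, with replicates 3 and 4 the highest. The mean was 10.35 ± 0.15 (SD, n = 4) in knockout and 9.47 ± 0.09 (SD, n = 3) in wild type, a 1.84-fold rise (log2 difference 0.88, SE 0.10, limma adjusted p = 0.000548). The Slc2a1 probe sets 1426599_a_at and 1426600_at gave 0.99 (SE 0.06) and 0.89 (SE 0.08). The order of the knockout arrays was not shared by these probe sets: 1426599_a_at read 10.17, 10.19, 10.21 and 10.17 in replicates 1 to 4, and 1426600_at read 8.94 and 9.06 in replicates 1 and 2 and 8.79 and 8.82 in replicates 3 and 4.

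Hk2 encodes an inducible, mitochondria-binding hexokinase that phosphorylates glucose. It read 8.51, 8.50, 8.74 and 8.85 in the arrays labelled knockout, against 8.06, 7.97 and 7.92 in wild type, with no overlap and with replicates 3 and 4 higher than replicates 1 and 2. The log2 difference was 0.66 (SE 0.10, adjusted p = 0.00229), or 1.58-fold.

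Pfkp and Pfkl encode the platelet and liver types of phosphofructokinase, which makes fructose 1,6-bisphosphate. Pfkp read 10.01, 10.02, 9.89 and 9.95 in the arrays labelled knockout, against 9.07, 8.98 and 9.03 in wild type. The spread within each group was small, with an SD of 0.06 (n = 4) in knockout and 0.05 (n = 3) in wild type, and the groups lay far apart (1.92-fold, log2 difference 0.94, SE 0.06, adjusted p = 6.5e-05). Pfkl read 7.16, 7.12, 7.43 and 7.38 in the arrays labelled knockout, against 7.81, 7.72 and 7.65 in wild type. It fell without overlap, further in replicates 1 and 2 (log2 difference -0.45, SE 0.10, adjusted p = 0.00911). Of the 3 Pfkl probe sets, 1453541_at, the dimmest at 4.36 in knockout and 4.43 in wild type, had a difference of -0.07 (SE 0.09) with overlapping groups.

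Aldoa encodes the aldolase that cleaves fructose 1,6-bisphosphate. Its brightest probe set read 11.95, 12.00, 12.15 and 12.07 in the arrays labelled knockout, against 11.74, 11.91 and 11.93 in wild type. The groups did not overlap but nearly touched, and the test was not passed (0.18, SE 0.08, adjusted p = 0.101). The call depends on the probe set: 3 of the other 4 Aldoa probe sets passed, with differences of 0.28 to 0.34, and the mean of the 5 probe sets gave 0.27 (SE 0.06, adjusted p = 0.0138). All 5 carry the suffix _x_at, which the array maker uses for probes that may bind other transcripts.

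Pgk1 encodes phosphoglycerate kinase, the first ATP-yielding step. It read 12.38, 12.42, 12.42 and 12.48 in the arrays labelled knockout, against 12.21, 12.18 and 12.19 in wild type, a small rise with no overlap (0.23, SE 0.06, adjusted p = 0.0133). It no longer passed with replicate number as a block (adjusted p = 0.0988), or without wild type replicate 2 (0.0629) or 3 (0.0538). The call also depends on the probe set. In a limma fit across all probe sets, Pgk1 1438640_x_at did not pass (0.15, SE 0.06, adjusted p = 0.0842). Pgk1 1439435_x_at passed (0.28, SE 0.08, adjusted p = 0.0286). Pkm encodes the pyruvate kinase of muscle and most other tissues. It read 12.03, 12.06, 11.81 and 11.83 in the arrays labelled knockout, against 11.69, 11.62 and 11.60 in wild type, with replicates 1 and 2 the highest (0.30, SE 0.08, adjusted p = 0.0265). This call was lost when any of 5 arrays was left out, namely knockout replicate 1 (adjusted p = 0.0601) or 2 (0.0558) or wild type replicate 1 (0.0528), 2 (0.0906) or 3 (0.0942). The array reads Pkm through 1 probe set, so the M1 and M2 splice forms were not told apart.

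Eno2 encodes the gamma form of enolase, best known from neurons. It read 7.01, 7.11, 5.60 and 5.66 in the arrays labelled knockout, against 5.0, 4.62 and 4.58 in wild type. The groups did not overlap, but replicates 1 and 2 (2.28 and 2.38 above the wild-type mean) were far above replicates 3 and 4 (0.86 and 0.93). The mean was 6.35 ± 0.83 (SD, n = 4) in knockout and 4.73 ± 0.23 (SD, n = 3) in wild type (3.06-fold, log2 difference 1.61, SE 0.42, adjusted p = 0.0195). The gene was dim, between the 21.3 and 47.5 percentile of genes in the arrays labelled knockout and between the 11.5 and 14.1 percentile in wild type, and the call was lost without wild type replicate 2 (adjusted p = 0.0668) or 3 (0.0696). Eno2 has 1 probe set on the array.

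Ldha encodes the lactate dehydrogenase subunit that favours lactate formation. It read 11.22, 11.24, 11.35 and 11.37 in the arrays labelled knockout, against 11.25, 11.19 and 11.19 in wild type. Replicates 1 and 2 lay within the wild-type range, and replicates 3 and 4 lay above it. The test was not passed (0.09, SE 0.06, adjusted p = 0.303). Without knockout replicates 1 and 2 the difference was 0.15 (adjusted p = 0.0420).

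**Figure D2:**
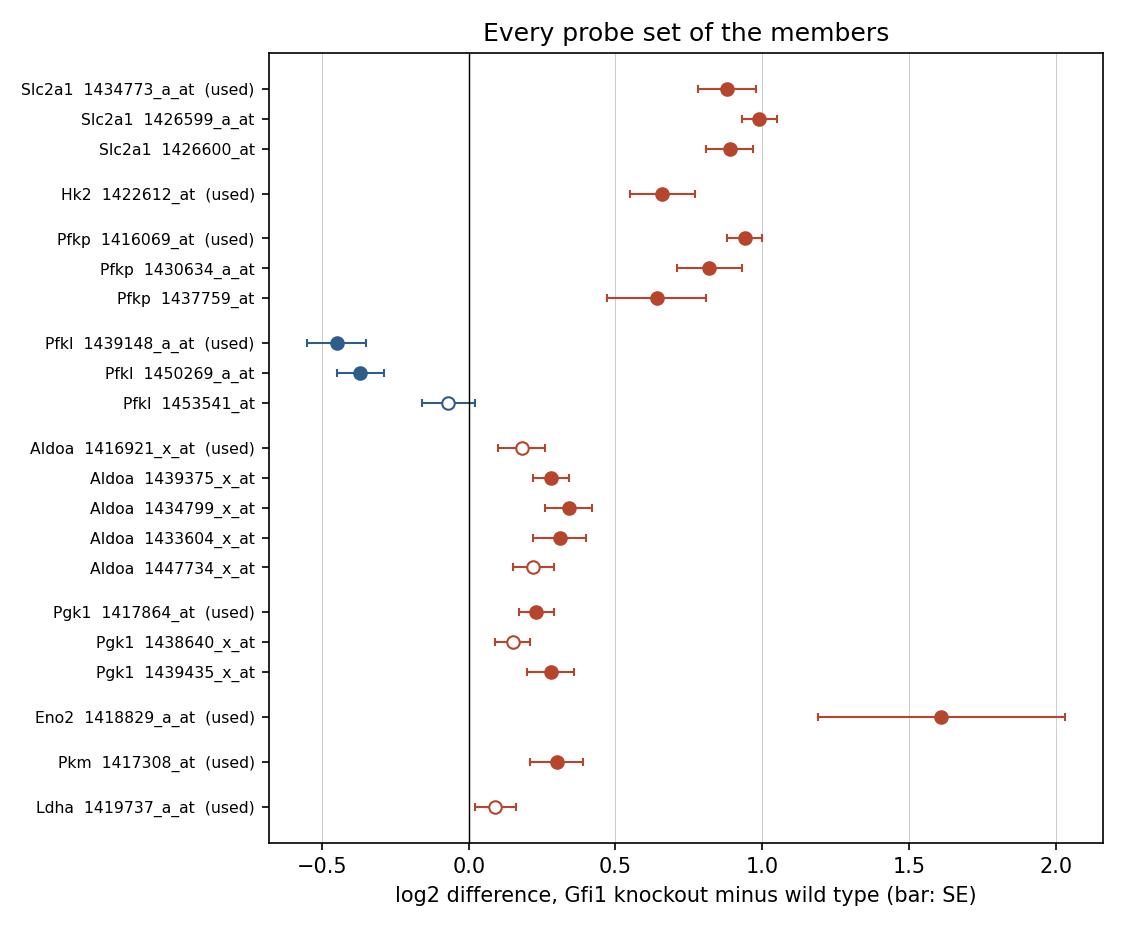
Log2 difference, knockout minus wild type, with its SE (x axis) for each of the 21 probe sets of the 9 members (y axis), red where positive and blue where negative, filled where the adjusted p over all 19431 probe sets is below 0.05. All Slc2a1 and Pfkp probe sets lie well above 0, all 3 Pfkl probe sets lie below it (2 of them filled), and the 5 Aldoa probe sets lie between 0.18 and 0.34.

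In a fit across all 19431 probe sets, 14 of the members' 21 probe sets were called higher and 2 lower, against 18.8% and 20.5% of probe sets. All 3 probe sets of Slc2a1 and all 3 of Pfkp were called higher. Of these, Pfkp 1437759_at was dim, at 3.85 to 4.33 in knockout and 3.18 to 3.81 in wild type. Its wild-type values lay near or under the limit of the lowest 5% of genes (3.50 to 3.54), so its size is uncertain. No probe set of a member was called in the direction opposite to that of its gene.

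The calls above treat the 4 arrays labelled knockout as independent. With the 2 knockout pairs and the wild-type arrays as random blocks, only Slc2a1 (adjusted p = 0.0275) and Pfkp (adjusted p = 0.0082) among the 9 members passed, against 4.48% of genes called higher and 4.56% lower. Hk2 (adjusted p = 0.0687), Eno2 (0.0971), Pfkl (0.17), Pkm (0.291) and Pgk1 (0.348) did not. In this fit the wild-type arrays form 1 block, and all genes share 1 correlation within blocks (0.794). Spread between blocks of the same label is seen only between the 2 knockout pairs. These p-values are therefore not a full correction for the pairs. With only knockout replicates 3 and 4 set against wild type, 8 members rose and 1 fell, against 27.7% of all genes higher and 29.3% lower. With only replicates 1 and 2, 6 rose and 1 fell, against 34.1% of all genes in each direction.

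Pfkp and Pfkl, and Eno2 and Eno3, moved in opposite directions. With random blocks Pfkp (limma adjusted p = 0.0082) and Eno3 (0.0287) passed, while Pfkl (0.17) and Eno2 (0.0971) did not. Of 11 other glycolysis enzyme genes measured, 2 rose and 2 fell, near the 21.5% and 21.6% of all genes, with a median difference of -0.01. Hk1, the ubiquitous hexokinase, rose by 0.65 (SE 0.10, adjusted p = 0.00203) and the aldolase C gene Aldoc by 0.26 (SE 0.07, adjusted p = 0.0244). Eno3, the muscle enolase, read 6.59, 6.64, 6.59 and 6.57 in the arrays labelled knockout, against 7.28, 7.22 and 7.24 in wild type. It fell by 0.65 on the log2 scale (SE 0.05, adjusted p = 0.00019), the opposite direction to Eno2, and did so evenly over the 4 arrays. Bpgm, which makes 2,3-bisphosphoglycerate, fell by 0.26 (SE 0.07, adjusted p = 0.027). The triose phosphate isomerase gene Tpi1 (0.00, SE 0.08), the phosphoglycerate mutase gene Pgam1 (-0.18, SE 0.09) and the muscle phosphofructokinase gene Pfkm (-0.01, SE 0.12) did not pass. Gapdh and Gpi1 were not among the genes measured, so their steps have no reading here. With knockout replicates 1 and 2 alone against wild type, 4 of the 11 rose and 4 fell, near the 34.1% of all genes called in each direction in that fit. Of 4 other hexose transporter genes 1 passed, Slc2a3 (GLUT3), which rose by 0.46 (SE 0.11, adjusted p = 0.0114).

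**Figure D3:**
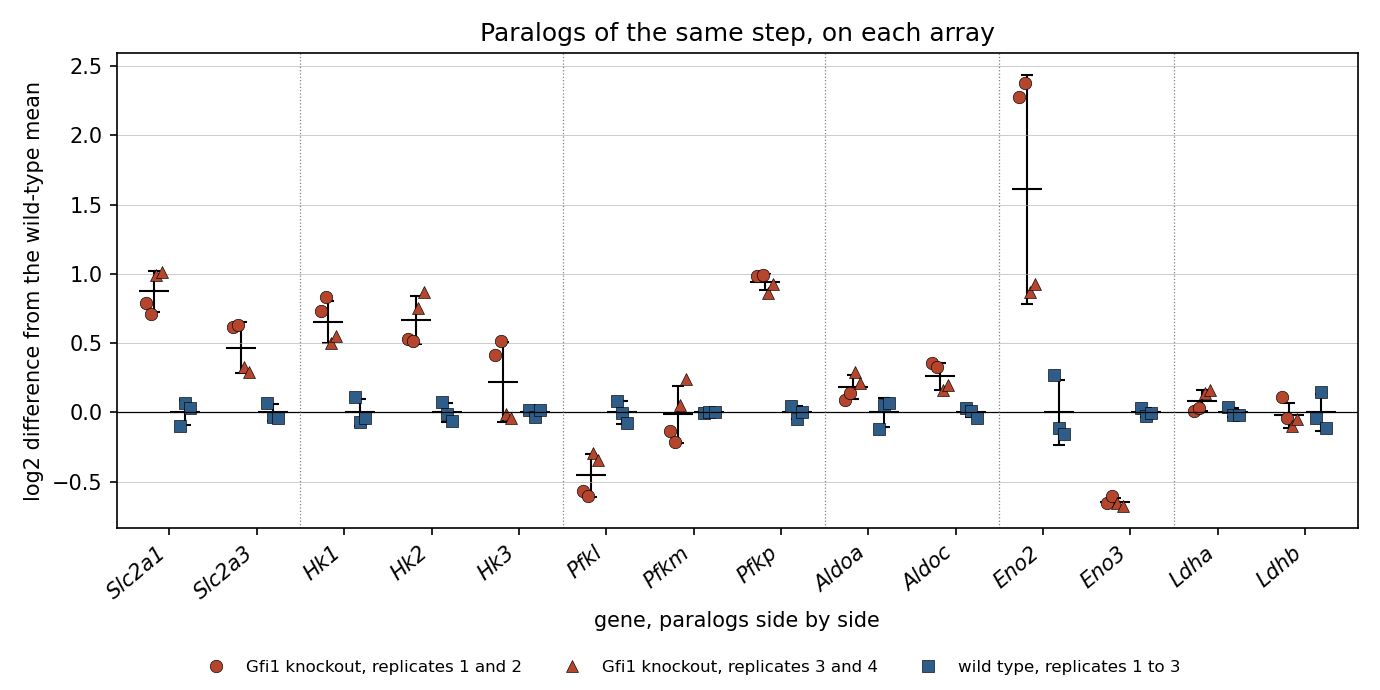
Log2 difference of each array from the wild-type mean (y axis) for paralogs of the same step (x axis, groups parted by dotted lines), with red circles for knockout replicates 1 and 2, red triangles for knockout replicates 3 and 4, blue squares for wild type, and black bars for mean ± SD (n = 4 and n = 3). Pfkp rose while Pfkl fell, Eno2 rose while Eno3 fell, and Hk1 and Hk2 rose by 0.65 and 0.66.

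The unequal change of paralogs was tested on the log2 ratio within each array, for 4 pairs. Relative to the wild-type mean, the Pfkp over Pfkl ratio was 1.55, 1.60, 1.17 and 1.26 in the arrays labelled knockout, against -0.04, -0.04 and 0.08 in wild type. All knockout arrays were higher, by 1.39 on average, and the two-sided exact permutation p was 0.0571, the smallest that 4 against 3 arrays allow (0.229 adjusted over the 4 pairs). The Slc2a1 over Slc2a3 ratio was higher by 0.41 (exact p = 0.114, adjusted 0.229), by 0.67 and 0.72 in replicates 3 and 4 and by 0.17 and 0.08 in replicates 1 and 2. The Ldha over Ldhb ratio differed by 0.11 (exact p = 0.457, adjusted 0.61). The Hk2 over Hk1 ratio differed by 0.01 on average (exact p = 0.971, adjusted 0.971), but was -0.21 and -0.31 in replicates 1 and 2, against 0.25 and 0.31 in replicates 3 and 4, so the mean hid opposite values. With a smallest p of 0.0571, none of these tests could pass 0.05.

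Regulators of the pathway moved in both directions: of 16 measured, 5 rose and 4 fell (median -0.02), not far from the 21.5% and 21.6% of all genes. Hif1a, the oxygen-regulated subunit of HIF-1, read 10.21, 10.22, 10.41 and 10.37 in the arrays labelled knockout, against 9.42, 9.43 and 9.48 in wild type (0.86, SE 0.07, adjusted p = 0.00019). Its values over the 7 arrays, taken from the wild-type mean, were the closest of all non-member genes to those of Slc2a1 (root mean square difference 0.059 log2 units). This likeness holds for the brightest Slc2a1 probe set, since the other 2 did not have replicates 3 and 4 above replicates 1 and 2. The oncogene Myc, a known activator of glycolytic genes, rose by 1.31 (SE 0.18, adjusted p = 0.00123). Myc was dim in wild type (between the 7.38 and 10.1 percentile of genes) and did not pass with random blocks (limma adjusted p = 0.0507). Pfkfb3, which makes the phosphofructokinase activator fructose 2,6-bisphosphate, rose by 0.45 (SE 0.10, adjusted p = 0.0122). The other risers were Mlx, a partner of glucose-sensing factors (0.49, SE 0.07), and Tigar, which degrades fructose 2,6-bisphosphate (0.25, SE 0.08).

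Of the 3 genes of oxygen-sensing prolyl hydroxylases, which mark HIF subunits for destruction, Egln3 and Egln1 fell and Egln2 did not pass (-0.09, SE 0.08, adjusted p = 0.412). Egln3 read 4.18, 4.19, 4.31 and 4.56 in the arrays labelled knockout, against 6.55, 6.73 and 6.61 in wild type (-2.32, SE 0.11, adjusted p = 2.1e-05). Egln1 read 5.76, 6.06, 7.00 and 6.99 in the arrays labelled knockout, against 7.68, 7.51 and 7.52 in wild type (-1.12, SE 0.32, adjusted p = 0.0272), and was lowest in replicates 1 and 2. Both are known HIF targets, as are Slc2a1, Hk2, Pgk1 and Ldha, which are examples and not a full list. Among these named targets Egln3 and Egln1 fell, Slc2a1, Hk2 and Pgk1 rose, and Ldha did not pass. Whether HIF activity differed was not tested. Hif1an, the asparaginyl hydroxylase of HIF, fell by 0.33 (SE 0.07, adjusted p = 0.00652). Epas1, which encodes HIF-2 alpha, had a difference of -0.81 (SE 0.07, adjusted p = 0.000251), but at 3.32 to 3.54 in the arrays labelled knockout, against 4.24 to 4.28 in wild type, it lay at the limit of the lowest 5% of genes in knockout (3.44 to 3.49), so its size is uncertain.

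**Figure D4:**
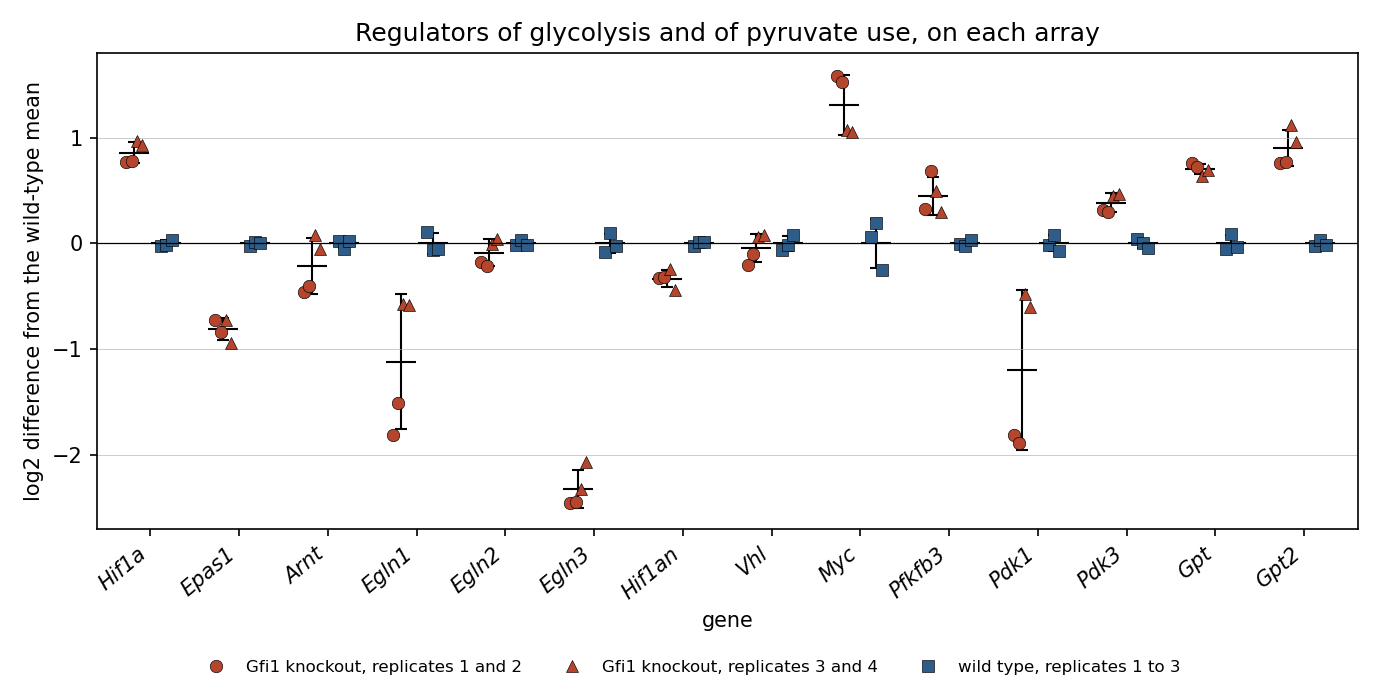
Log2 difference of each array from the wild-type mean (y axis) for regulators of glycolysis and genes of pyruvate use (x axis), with red circles for knockout replicates 1 and 2, red triangles for knockout replicates 3 and 4, blue squares for wild type, and black bars for mean ± SD (n = 4 and n = 3). Hif1a and Myc rose while Egln3 fell in all 4 knockout arrays, and Egln1 and Pdk1 were lowest in knockout replicates 1 and 2.

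Past pyruvate, 9 of 18 measured genes rose and 2 fell (median 0.28), against 21.5% and 21.6% of all genes. Pdk1, a kinase that blocks pyruvate dehydrogenase, read 6.35, 6.27, 7.68 and 7.56 in the arrays labelled knockout, against 8.15, 8.24 and 8.09 in wild type (-1.20, SE 0.38, adjusted p = 0.039), while the related Pdk3 rose by 0.39 (SE 0.07, adjusted p = 0.0041). Of the pyruvate dehydrogenase complex, Pdhx (0.66, SE 0.08), Dld (0.49, SE 0.07), Dlat (0.41, SE 0.07) and Pdhb (0.28, SE 0.06) rose, and Pdha1 fell by 0.37 (SE 0.12, adjusted p = 0.042). The alanine transaminase genes Gpt2 (0.90, SE 0.10) and Gpt (0.71, SE 0.06) and the pyruvate carboxylase gene Pcx (0.64, SE 0.09) rose. The lactate exporter gene Slc16a3 (MCT4) rose by 0.43 (SE 0.09, adjusted p = 0.00926), and Slc16a1 (MCT1) stood at 0.29 (SE 0.14, adjusted p = 0.133). With knockout replicates 1 and 2 alone, 9 of the 18 rose and 6 fell, against 34.1% of all genes in each direction.

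In the pentose phosphate pathway, which draws on glucose 6-phosphate, 4 of 10 measured genes fell and 0 rose by limma (0 also at an unadjusted p under 0.05), against 21.6% and 21.5% of all genes, with a median of -0.18. With knockout replicates 1 and 2 alone 6 fell and 1 rose (34.1% of all genes in each direction), and with replicates 3 and 4 alone 4 fell and 1 rose (29.3% and 27.7% of all genes). The transaldolase gene Taldo1 fell by 0.70 (SE 0.07, adjusted p = 0.000406), the phosphoribosyl pyrophosphate synthetase gene Prps2 by 0.75 (SE 0.21), H6pd, its glucose 6-phosphate dehydrogenase of the endoplasmic reticulum, by 0.49 (SE 0.12) and Pgd, its phosphogluconate dehydrogenase, by 0.21 (SE 0.07). G6pdx, listed for the pentose phosphate pathway, was not among the genes measured. Of 11 glycogen and gluconeogenesis genes 2 rose and 4 fell, against 21.5% and 21.6% of all genes. Pck2, the mitochondrial phosphoenolpyruvate carboxykinase gene, rose by 0.56 (SE 0.07) and the phosphoglucomutase gene Pgm2 by 0.38 (SE 0.12). The glycogenin gene Gyg, which primes glycogen, fell by 0.97 (SE 0.11, adjusted p = 0.000676), the glucose 1,6-bisphosphate synthase gene Pgm2l1 by 1.55 (SE 0.23, adjusted p = 0.00186) and the glucose 6-phosphatase gene G6pc3 by 0.20 (SE 0.06). Pygl, a glycogen phosphorylase gene, had a difference of -0.63 (SE 0.20) at a signal under the lowest 5% limit.

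Among 13 genes of side branches and NADH shuttles, 8 rose and 2 fell (median 0.23), against 21.5% and 21.6% of all genes. Psph, the last enzyme of serine synthesis from a glycolytic intermediate, read 10.36, 10.43, 10.46 and 10.51 in the arrays labelled knockout, against 9.0, 8.89 and 9.09 in wild type (1.44, SE 0.07, adjusted p = 2.7e-05). Psat1, of the same branch, rose by 0.46 (SE 0.06), and Phgdh, its first enzyme, stood at 0.05 (SE 0.08, adjusted p = 0.638). In the hexosamine branch Gnpnat1 rose by 1.00 (SE 0.27) and Pgm3 by 0.76 (SE 0.10), while Gfpt1, its first and rate-limiting enzyme, fell by 0.66 (SE 0.22, adjusted p = 0.0428). Gpd2 of the glycerol phosphate shuttle (0.73, SE 0.09) and Got1 of the malate-aspartate shuttle (0.71, SE 0.20) rose, and the cytosolic malate dehydrogenase gene Mdh1 fell by 0.25 (SE 0.07). Over these lists of pathway, transporter and regulator genes, 45 of 83 measured genes outside the 9 members were called, 27 higher and 18 lower, against 21.5% and 21.6% of all genes. With the random blocks 10 remained (4 higher and 6 lower, against 4.48% and 4.56% of all genes), of which Hif1a, Gpt, Gpt2 and Psph were higher and Eno3, Egln3, Epas1, Taldo1, Gyg and Pgm2l1 lower.

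The genes whose values over the 7 arrays were closest to the members with the largest differences were Nfil3 and Dusp1 for Eno2 (root mean square difference 0.097 and 0.104 log2 units), Fyb and Ifi44l for Pfkp (0.023 and 0.037), and Hif1a and Gpt2 for Slc2a1 (0.059 and 0.067). Nfil3 stood 2.28, 2.26, 0.94 and 0.97 above the wild-type mean in knockout replicates 1 to 4, against 2.28, 2.38, 0.86 and 0.93 for Eno2. Nfil3 encodes a leucine zipper transcription factor, Dusp1 a MAP kinase phosphatase, Fyb an adaptor of immune cells and Ifi44l an interferon-inducible protein. The 7 arrays fall into 3 close sets, so a like profile rests on few distinct values.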

How the data were processed

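The authors deposited 1 normalized intensity per probe set and array (19431 probe sets, 7 arrays). RMA is named in the submitters' processing notes, without a version; the sources used here give no further settings. The deposited intensity values were on a linear scale, so log2 was taken first. Normalization between arrays removes a global change of RNA content. Precision is limited by the number of arrays. Probe sets with 1 symbol in the platform annotation (17335) gave 9999 genes, each read from its brightest probe set by mean log2 signal, and 2096 probe sets with several symbols or none were left out. Arrays labelled knockout were set against wild-type arrays with limma 3.58.1 (R 4.3.3), two-sided, with Benjamini-Hochberg adjustment over the 9999 genes (5 residual and 2.2 prior degrees of freedom). Paralog ratios were tested by exact permutation (scipy 1.17.1). The fit was also run on simulated data with independent arrays and wild-type spreads. The close knockout pairs were not simulated, so that run does not check the calls against them. The alternatives were array centring, quantile normalization, a filter on dim genes, averaging the probe sets of a gene, another prior, a test against a fold of 1.2, a replicate block, random blocks and left-out arrays; the fit across every probe set was chosen after seeing the data. The members and lists were chosen with earlier results of these data known. The genes named were the members, their paralogs, listed genes past the threshold by at least 0.5 (up to 6 a list), Gfi1 and the 2 genes most like each of 3 members; others were chosen after their values were seen.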

Additional observations from a re-analysis of the deposited data

How the results depend on the processing

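Slc2a1 and Pfkp passed under every alternative run, including each of their probe sets, and no member changed sign under any. Of 4305 genes called (2149 higher, 2156 lower) and 7 of 9 members (6 higher, 1 lower), a test against a fold of 1.2 left 1746 genes (853 and 893) and 4 members (4 and 0, with 1 lower, Pfkl, at an unadjusted p under 0.05). With random blocks 904 genes (448 and 456) and 2 members (2 and 0, with 1 lower, Pfkl, at an unadjusted p under 0.05) were called; without knockout replicates 1 and 2, 5697 genes and 9 members were called, and without knockout replicates 3 and 4, 6814 genes (3406 and 3408) were called, with 7 members. Leaving out 1 array gave 2879 to 4465 genes, of which 1379 to 2182 were higher and 1500 to 2289 lower, and 4 to 7 members, of which 3 to 6 were higher and 1 lower. The lowest counts came without wild type replicate 2 (2879 genes, 4 members) and replicate 3 (2981 genes, 4 members). Correlations of same-numbered deviations were 0.124, -0.09 and 0.106. They cannot show whether replicate numbers pair the arrays, since close knockout replicates correlated alike (0.124 and 0.123 with wild type replicate 1). Wild type replicates 1 and 3 correlated best with their own number, and replicate 2 with knockout replicate 3 (0.109). A replicate block called 3805 genes and 6 members. The small Hk2 over Hk1 ratio ran from -0.09 to 0.12 when 1 array was left out and was -0.26 without knockout replicates 3 and 4, where Ldha over Ldhb was -0.01; Ldha over Ldhb ran from 0.02 to 0.18, Pfkp over Pfkl from 1.33 to 1.47 and Slc2a1 over Slc2a3 from 0.31 to 0.52. The cause of these changes was not tested. Signal near the lowest 5% of genes limits Epas1, Pygl, Gfi1, Mrc1, Pdgfrb and the Pfkp probe set 1437759_at.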

Other observations

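The 4 arrays labelled knockout did not order the members alike. Replicates 3 and 4 lay above replicates 1 and 2 for 6 of the 9 members (Slc2a1, Hk2, Pfkl, Aldoa, Pgk1 and Ldha) and below them for 3 (Pfkp, Eno2 and Pkm), each read from its brightest probe set. For Pgk1 this was barely so, with replicates 2 and 3 both at 12.42 when rounded. Other probe sets did not all share this order: Slc2a1 1426600_at was higher in replicates 1 and 2, Slc2a1 1426599_a_at was level, and the dim Pfkp 1437759_at was higher in replicates 3 and 4. The knockout arrays were interleaved or tied when rounded for Pgk1 1438640_x_at, Aldoa 1439375_x_at and Aldoa 1447734_x_at. The mean of replicates 1 and 2 minus that of replicates 3 and 4 was 1.44 on the log2 scale for Eno2 and lay between -0.29 and 0.23 for the other members. Some neighbouring genes, picked after their values were seen, lay on opposite sides of wild type. The glycogen branching enzyme gene Gbe1 read 4.22, 4.35, 5.69 and 5.68 in knockout replicates 1 to 4, against 5.34, 5.15 and 5.22 in wild type, and its mean difference of -0.25 (SE 0.40) did not pass the test. The transporter gene Slc2a6 read 8.39, 8.33, 7.68 and 7.56 in knockout replicates 1 to 4, against 7.86, 7.90 and 7.85 in wild type. No label separates these arrays, and the differences between the knockout arrays were not tested.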
